A study of Homo sapiens with 4 samples.

Results

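The BCL2 family genes described here are 10 regulators of apoptosis, taken by symbol from a list of family genes: BCL2, BCL2L1, BCL2L2, MCL1, BAK1, BID, BCL2L11, PMAIP1, BIK and BMF. All 10 were found among the 26506 gene symbols of the expression tables of HeyC2 and SKOV3, 2 established ovarian cancer cell lines. Each line was transfected with a plasmid carrying TET1, a methylcytosine dioxygenase that starts active DNA demethylation (pCMV6/TET1, genotype TET1 overexpressed), or with the empty plasmid (control, genotype Wild-type). All 4 cultures received 3 μg of plasmid by lipofection and were then kept in 400 μg/ml Geneticin, so the controls carry the selection as well. The transgene vector uses a CMV promoter, and whether the selected cells were pools or clones is not given in the sources used here. The design asks how TET1 overexpression changes the transcriptome of each cell line. There was 1 RNA-seq library per condition, so no value below has a replicate check and no p-value is given.

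Proteins of the BCL2 family decide whether the outer mitochondrial membrane is opened during apoptosis. Pro-survival members hold the pore-forming effectors BAX and BAK1 in check, and BH3-only members bind to pro-survival members through a short helix, the BH3 domain, which frees the effectors. Ovarian cancer cells, like many epithelial tumour cells, often depend on the pro-survival proteins encoded by MCL1 and BCL2L1.

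Values are FPKM, fragment counts scaled to transcript length and library size, so that levels can be compared between genes. Each TET1 column had been multiplied by a constant so that the GAPDH value equals that of the control. The constant was 3.23 for HeyC2 and 1.35 for SKOV3. This constant was divided out here, and TET1 levels are given on that scale, with the deposited value in brackets where useful. A change is log2((TET1 + 1)/(control + 1)) minus the median of all genes with a mean of at least 1 FPKM in that line, which is called the relative change. The median itself was 0.06 in HeyC2 and 0.19 in SKOV3 on the log2 scale before it was subtracted. A gene counted as called when its relative change was at least 1.5-fold. All directions below are relative to the median gene. On the deposited scale without centring, GAPDH is the reference. There 9 of the 10 members lay above control in each line, the exceptions being BCL2 in HeyC2 and BAK1 in SKOV3. Every other direction given as lower for a member thus reverses there. This count carries the constant and is not read as a result about the members. GAPDH itself was at -1.75 in HeyC2 and -0.62 in SKOV3 relative to the median gene.

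TET1 itself was at 0.20 FPKM in the HeyC2 control and 0.52 FPKM in HeyC2 TET1, and at 0.43 and 1.80 FPKM in SKOV3. It did not pass the filter in HeyC2, and its relative change in SKOV3 was 0.78. Depth was not given with the FPKM, and each library held an estimated 6580000 to 7300000 fragments, so fragment numbers and the counting intervals made from them are approximate. Of the epithelial and ovarian markers, KRT8, KRT18 and PAX8 were high in all 4 libraries, while CDH1, MUC16 and WT1 were at 0 in both HeyC2 libraries. EPCAM was at 0.09 and 0.38 FPKM in HeyC2 control and TET1, KRT19 at 0.62 and 1.59 FPKM, and MUC1 at 1.23 and 1.33 FPKM. In SKOV3, MUC16 was at 0.05 and 0.01 FPKM and WT1 at 0 and 0.53 FPKM. There CDH1 was at 2.24 and 6.30 FPKM, EPCAM at 15.39 and 16.10 FPKM and MUC1 at 17.92 and 5.40 FPKM. In SKOV3 the keratin gene KRT19 was at 255.14 FPKM in the control and 0.46 FPKM in TET1. Summed over 5 fibroblast markers, SKOV3 went from 1.04 to 34.66 FPKM, of which COL1A1 made up 27.66 FPKM, and DCN was at 0 in SKOV3 TET1. In HeyC2 the same sum was 0.60 and 1.87 FPKM. Summed over 4 endothelial markers, HeyC2 went from 19.61 to 95.38 FPKM, almost all of it CDH5, and SKOV3 from 0.86 to 0.64 FPKM. Immune markers were carried by CD68, with CD3E and MS4A1 at 0 in every library. The part of these marker differences in the values below was not tested. Whether fewer cells with a transcript or less of it per cell lies behind a lower value cannot be told apart in bulk RNA.

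In the HeyC2 control, the order of levels was MCL1, BCL2L1, BCL2L2, PMAIP1, BID, BAK1, BMF, BCL2, BCL2L11 and BIK. In the SKOV3 control it was MCL1, BCL2L1, PMAIP1, BAK1, BCL2L2, BID, BIK, BCL2, BCL2L11 and BMF. MCL1 and BCL2L1 lay at least at percentile 95.7 of the genes above 0 in both controls, whereas BCL2, the gene that names the family, lay at percentiles 18.8 and 31.7. With 1 library per condition there is no spread by which neighbours in this order can be separated. The HeyC2 and SKOV3 tables were made separately, so levels are set side by side between the lines and not tested.

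**Figure D1:**
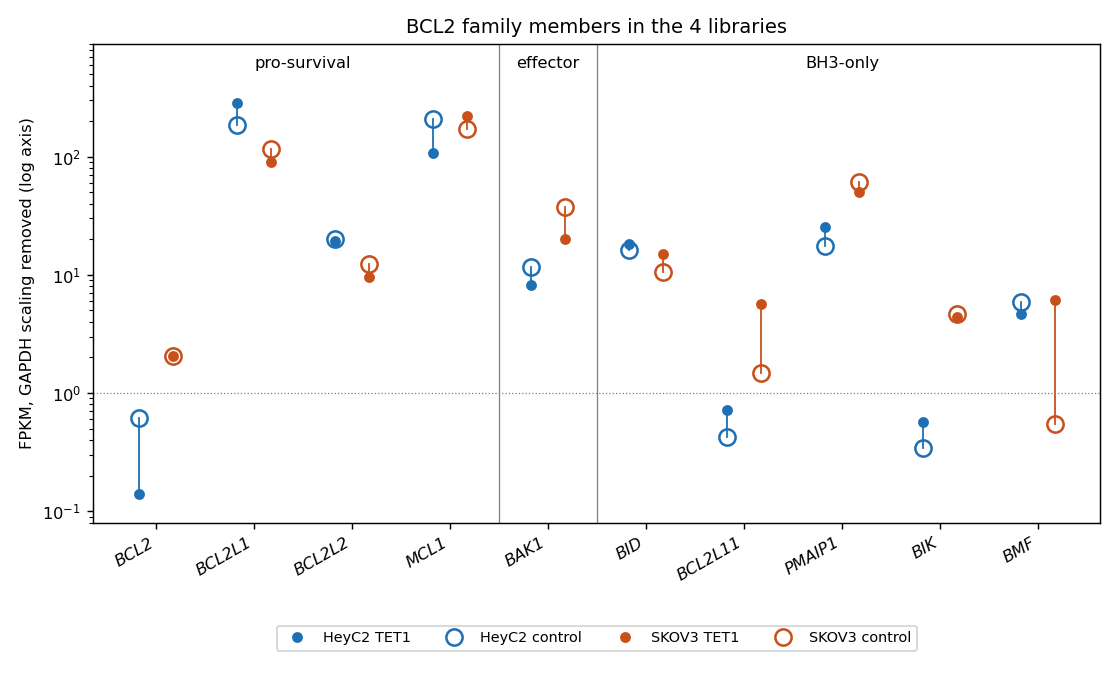
Level of each BCL2 family member in the 4 libraries, in FPKM on a log axis with the GAPDH scaling removed. Open rings are controls, filled points are TET1, lines join the libraries of one cell line, and the dotted line marks 1 FPKM. MCL1 and BCL2L1 sit at or above 90.1 FPKM in every library, and the widest gap is that of BMF in SKOV3.

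In HeyC2, 7 of the 10 members had a mean of at least 1 FPKM. MCL1 was the only one called, with a lower level in TET1, and 0 were called higher. Over all 11896 genes tested in HeyC2, 12.5% were called higher and 9.19% lower. In SKOV3 all 10 members passed, of which BMF and BCL2L11 were called higher and BAK1 lower. BMF passed only through its level in TET1. Over all 13016 genes tested in SKOV3, 20.7% were called higher and 18.2% lower. Members called were thus 1 of 7 in HeyC2 and 3 of 10 in SKOV3, shares near those of all genes, and their number is not a result about the family. The median relative change of the members was -0.11 in HeyC2 and -0.22 in SKOV3, beside 0 for all genes by construction. No member was called in both lines (0 of 10), but only 7 passed in both and could be. The share of all genes called in both lines is not given here, so nothing is read from this count.

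**Figure D2:**
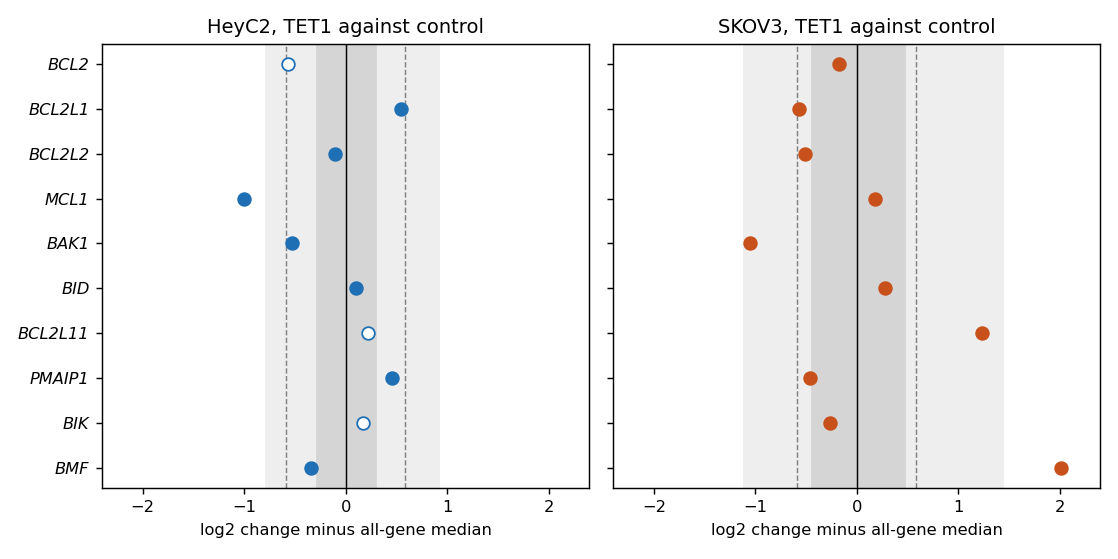
Relative log2 change of each member in HeyC2 (left) and SKOV3 (right), TET1 against control. Dark and light bands hold the middle 50% and 90% of all genes tested, dashed lines mark 1.5-fold, and open points are members under 1 FPKM on average. MCL1 in HeyC2 lies left of the light band at -1.004 (0.74 as deposited without centring), and BMF in SKOV3 lies right of it at 2.01.

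MCL1 encodes a short-lived pro-survival protein that binds BAK1 and several BH3-only proteins (chromosome 1, 150533371 to 150552214, minus strand, GRCh37). It was at 208.31 FPKM in the HeyC2 control and 107.66 FPKM in HeyC2 TET1 (348.21 as deposited), and at 170.07 and 220.10 FPKM in SKOV3 (296.18 as deposited). HeyC2 TET1 was thus the lowest of the 4 libraries and SKOV3 TET1 the highest. The relative change was -1.004 in HeyC2, a level 2.01-fold lower, and 0.18 in SKOV3. In HeyC2 only 2.81% of the genes tested had a lower relative change. About 5779 and 2747 fragments stand behind the HeyC2 values, and the counting interval (95%, exact binomial) of the ratio to the median gene, which like all such ratios here has no pseudocount, was 0.474 to 0.520. As deposited, without centring, the log2 change of MCL1 in HeyC2 was 0.74, so its direction holds relative to other genes and not to GAPDH. None of the 20 nearest protein-coding genes that passed, up to 10 on each side, was lower in HeyC2 (0 of 20), and their median was -0.18. ADAMTSL4 overlaps MCL1 on the other strand and was at 0.41 and 1.87 FPKM in HeyC2, and ADAMTSL4-AS1 was at 0 and 0.51 FPKM.

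BCL2L1 encodes the pro-survival protein BCL-XL and, by splicing, the shorter BCL-XS, which a value per gene cannot separate (chromosome 20, 30252255 to 30311792, minus strand). It was at 186.06 and 283.42 FPKM in HeyC2 control and TET1 (916.69 as deposited) and at 117.21 and 90.14 FPKM in SKOV3 (121.30 as deposited). HeyC2 TET1 was the highest of the 4 libraries and SKOV3 TET1 the lowest, the reverse of MCL1. The relative changes were 0.55 in HeyC2 and -0.57 in SKOV3 (0.05 there as deposited). That is 1.46-fold above and 1.48-fold below the median gene, just inside the limit of 1.5-fold. In each line BCL2L1 was past that limit in the same direction in 2 of 9 alternative settings. These were the settings with the GAPDH scaling kept in HeyC2, and the pseudocounts of 0.1 and 0.01 FPKM in SKOV3. Counting intervals of the ratio were 1.399 to 1.53 in HeyC2 and 0.629 to 0.721 in SKOV3. The 20 nearest genes that passed had a median of 0.35 in HeyC2, with 6 above BCL2L1. In SKOV3 their median was 0.16, with 5 below BCL2L1. ABALON, a noncoding RNA on the opposite strand of this locus, moved with BCL2L1, at 80.70 and 119.09 FPKM in HeyC2 and 51.80 and 38.04 FPKM in SKOV3. The strand setting of the counting is not given in the sources used here, so reads of BCL2L1 and ABALON cannot be told apart and both values are uncertain.

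BCL2L2 encodes the pro-survival protein BCL-w (chromosome 14, 23767999 to 23780960, plus strand). Its levels were 20.02 and 19.27 FPKM in HeyC2 control and TET1 and 12.30 and 9.65 FPKM in SKOV3. The relative changes were -0.11 and -0.51, neither of them called. The gene shares sequence with the readthrough gene BCL2L2-PABPN1, at 12.22 and 18.38 FPKM in HeyC2 and 15.60 and 11.16 FPKM in SKOV3, and the split of reads between both is uncertain. HOMEZ and PPP1R3E overlap BCL2L2 on the other strand, with relative changes of -0.89 and 0.39 in HeyC2 and 0.21 and 0.33 in SKOV3. For BCL2 (chromosome 18, 60790579 to 60987361, minus strand) the levels were 0.62 and 0.14 FPKM in HeyC2 and 2.04 and 2.07 FPKM in SKOV3. In HeyC2 this rests on about 30 and 6 fragments, and the ratio without a pseudocount was 0.217, with a counting interval of 0.0709 to 0.508. BCL2 did not pass the filter in HeyC2, where its relative change was -0.56 with the pseudocount of 1 FPKM, which exceeds both levels and pulls the value toward 0. With pseudocounts of 0.1 and 0.01 FPKM it was -1.65 and -2.14, and it was past 1.5-fold lower in 5 of 9 alternative settings. In SKOV3 the relative change was -0.18.

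Within a library, any scaling cancels from a ratio between members. The ratio of BCL2L1 to MCL1 was 0.893 in the HeyC2 control and 2.63 in HeyC2 TET1. In SKOV3 it was 0.689 in the control and 0.410 in TET1. MCL1 made up 50.2% of the summed FPKM of the 4 pro-survival members in the HeyC2 control and 26.2% in HeyC2 TET1, with BCL2L1 at 44.8% and 69.0%. In SKOV3 the share of MCL1 was 56.4% in the control and 68.4% in TET1, with BCL2L1 at 38.9% and 28.0%. The sum itself was 415.01 and 410.49 FPKM in HeyC2 and 301.62 and 321.96 FPKM in SKOV3. The largest pro-survival share was that of MCL1 in 3 libraries and that of BCL2L1 in HeyC2 TET1.

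**Figure D3:**
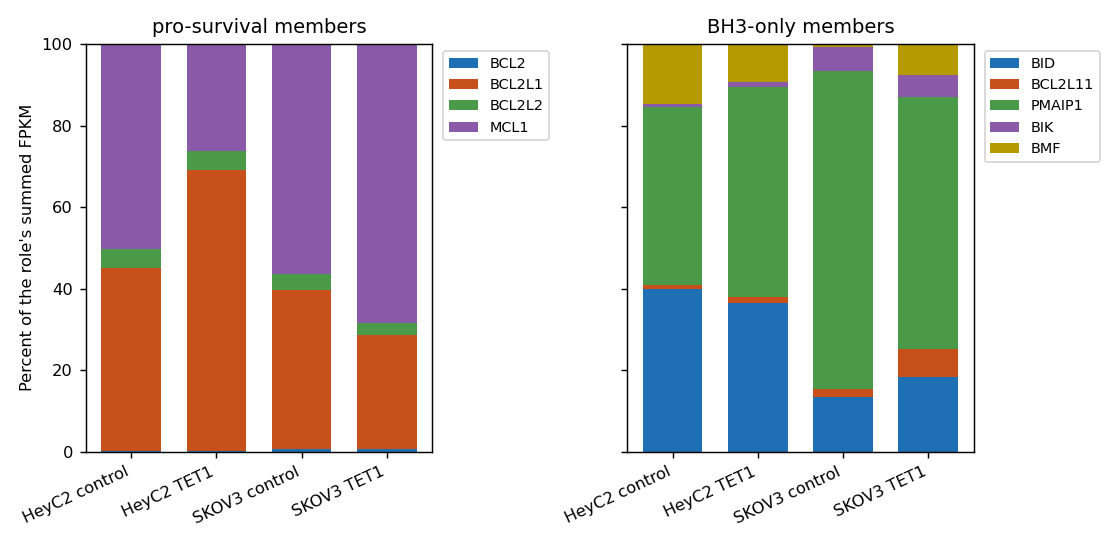
Share of each member in the summed FPKM of its role, pro-survival (left) and BH3-only (right), as stacked bars that reach 100% in each of the 4 libraries. BCL2L1 takes 69.0% of the pro-survival sum in HeyC2 TET1 against 44.8% in its control, and PMAIP1 is the largest BH3-only share in every library.

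BAK1, the member that forms pores in the mitochondrial membrane, lies on chromosome 6 (33540324 to 33548070, minus strand). It was at 11.69 and 8.16 FPKM in HeyC2 control and TET1 (26.39 as deposited) and at 37.55 and 20.26 FPKM in SKOV3 (27.26 as deposited). In both lines TET1 was below control, with relative changes of -0.53 in HeyC2 and -1.05 in SKOV3, where the level was 2.07-fold lower and the gene was called. The counting interval of the SKOV3 ratio was 0.406 to 0.548, on about 532 and 266 fragments. On the deposited scale the direction in SKOV3 was the same (-0.45), whereas in HeyC2 it was 1.11. Of the 20 nearest genes that passed, 2 lay below BAK1 in each line. Their medians over all 20 were 0.04 in HeyC2 and -0.29 in SKOV3. BAX, the other main effector, was at 286.15 and 321.09 FPKM in HeyC2 and 92.56 and 94.65 FPKM in SKOV3, with relative changes of 0.11 and -0.16. GGNBP1, a pseudogene over BAK1 on the other strand, was listed at 0 in all 4 libraries. The ratio of BAX to BAK1 was thus 24.5 and 39.3 in HeyC2 and 2.46 and 4.67 in SKOV3.

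The BH3-only genes that were called, BMF and BCL2L11, were both higher in SKOV3 TET1, and the sequences before their RefSeq starts are shown because TET1 acts on methylated CpG sites. Each is 250 bases, read in the direction of the gene, with CpG dinucleotides in capitals. BCL2L11 lies at chr2:111878241-111878490 (plus strand) and BMF has a pair of starts, at chr15:40401081-40401330 and chr15:40399168-40399417 (minus strand, all GRCh37, located by exact match of the RefSeq GRCh38.p14 sequence).
BCL2L11: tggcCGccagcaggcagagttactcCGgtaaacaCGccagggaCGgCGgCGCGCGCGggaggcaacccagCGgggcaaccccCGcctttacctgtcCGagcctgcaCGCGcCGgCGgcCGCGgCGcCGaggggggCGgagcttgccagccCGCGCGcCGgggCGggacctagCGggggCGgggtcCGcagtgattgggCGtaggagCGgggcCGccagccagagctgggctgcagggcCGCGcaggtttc
BMF, CpG-rich start: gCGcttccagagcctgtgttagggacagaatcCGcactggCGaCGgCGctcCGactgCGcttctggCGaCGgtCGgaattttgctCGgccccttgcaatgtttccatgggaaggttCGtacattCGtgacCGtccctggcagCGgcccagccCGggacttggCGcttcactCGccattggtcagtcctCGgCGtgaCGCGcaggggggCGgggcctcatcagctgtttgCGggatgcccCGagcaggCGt
BMF, CpG-free start: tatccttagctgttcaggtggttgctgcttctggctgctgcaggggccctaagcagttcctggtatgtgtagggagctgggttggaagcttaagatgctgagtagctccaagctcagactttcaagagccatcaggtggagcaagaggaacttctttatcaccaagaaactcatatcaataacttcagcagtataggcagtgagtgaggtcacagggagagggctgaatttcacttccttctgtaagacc
They held 34, 26 and 0 CpG dinucleotides, against a median of 11 over all 35116 promoter windows of that length. The window of BCL2L11 was at percentile 93.2 of all windows and the CpG-rich start of BMF at 80.4. Of the members not called in either line, PMAIP1 had 36, BCL2 24, BCL2L1 12 and 17, and the 5 windows of BID 4 to 30. BAK1, called lower in SKOV3, had 5. Methylation was not measured in these libraries. Of 4 motifs searched on both strands (TGATGNAA for C/EBP-ATF, TGTTTAC for FOXO, TTTCGCGC for E2F and CACGTG for the E-box), BCL2L11 held 1 match to the FOXO letters and BMF none. Of the 5 windows of BID, 2 held the E-box, but they overlap and share the same site. The motifs were in 3.14%, 2.98%, 0.439% and 6.34% of all windows in the order given. In all, 7 of the 10 members had a window, and MCL1, BCL2L2 and BIK had none.

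BMF encodes a BH3-only protein that binds the dynein light chain DYNLL2 at the cytoskeleton (chromosome 15, 40380091 to 40401093, minus strand). It was at 5.91 and 4.68 FPKM in HeyC2 control and TET1 and at 0.55 and 6.12 FPKM in SKOV3 (8.24 as deposited). SKOV3 control was the lowest library, and the other 3 lay within 4.68 to 6.12 FPKM. The relative change was 2.01 in SKOV3, higher than that of 98.2% of the genes tested, and -0.34 in HeyC2. In SKOV3, BMF passed the filter only through the TET1 library, where it is high. A gene that low in the control is tested only when it rises, so nothing is read from this percentile. Without a pseudocount the SKOV3 ratio was 9.74, with a counting interval of 5.87 to 16.5 on about 18 and 182 fragments. All 20 nearest genes that passed lay below BMF in SKOV3, with a median of -0.65. DYNLL2 was at 58.28 and 101.31 FPKM in SKOV3, a relative change of 0.60, and DYNLL1, whose product binds BCL2L11, was at -0.60.

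BCL2L11 encodes BIM, which binds every main pro-survival protein (chromosome 2, 111876955 to 111926021, plus strand). Its levels were 0.42 and 0.72 FPKM in HeyC2, where it did not pass the filter, and 1.49 and 5.69 FPKM in SKOV3 (7.66 as deposited). SKOV3 TET1 stood apart from the other 3 libraries, all at or below 1.49 FPKM. The relative change in SKOV3 was 1.23, higher than that of 93.0% of the genes tested, and the ratio without a pseudocount was 3.34, with a counting interval of 2.44 to 4.64 on about 52 and 184 fragments. In HeyC2 the relative change was 0.22, and the ratio without a pseudocount was 1.65 on about 15 and 24 fragments, with an interval of 0.840 to 3.42 that includes 1. All 20 nearest genes that passed were below it in SKOV3, with a median of 0.31 and a highest value of 1.19. MCL1, BMF and BCL2L11 were called for their large changes, so a place beyond all neighbours is no separate support. MIR4435-2HG, which overlaps BCL2L11 on the other strand, had a relative change of -0.72 in SKOV3.

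PMAIP1 encodes NOXA, a BH3-only protein that binds mainly MCL1 (chromosome 18, 57567228 to 57571537, plus strand). It was at 17.58 and 25.54 FPKM in HeyC2 (82.61 as deposited) and at 61.13 and 50.59 FPKM in SKOV3 (68.08 as deposited). Both SKOV3 libraries were thus above both HeyC2 libraries, and the relative changes of 0.46 and -0.46 were not called. BID, which caspase-8 cleaves to link death receptors to mitochondria, was at 16.08 and 18.09 FPKM in HeyC2 and 10.52 and 14.90 FPKM in SKOV3 (chromosome 22, 18216904 to 18257536, minus strand). Its relative changes were 0.10 and 0.27, and both counting intervals included 1, with 0.901 to 1.30 in HeyC2 and 0.993 to 1.54 in SKOV3. BIK, whose protein sits at the endoplasmic reticulum, was near its detection limit in HeyC2, with 0.34 and 0.57 FPKM from about 2 and 3 fragments (chromosome 22, 43506756 to 43525718, plus strand). The ratio was 1.61, with a counting interval of 0.184 to 19.2. In SKOV3 it was at 4.68 and 4.41 FPKM, a relative change of -0.26. A difference of BIK between HeyC2 control and TET1 was not detectable at this depth.

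The ratio of summed pro-survival to summed BH3-only FPKM was 10.3 for HeyC2 control, 8.28 for HeyC2 TET1, 3.85 for SKOV3 control and 3.94 for SKOV3 TET1. With the most abundant member of each role in each library left out, it was 9.09, 5.28, 7.63 and 3.27 in the same order of libraries. This removed PMAIP1 in every library, BCL2L1 in HeyC2 TET1 and MCL1 in each other library, so the HeyC2 pair sums different genes. Without PMAIP1 alone the ratio was 18.2, 17.1, 17.5 and 10.3, and without MCL1 alone it was 5.13, 6.11, 1.68 and 1.25. With BBC3, a BH3-only gene that is not among the members, added to the BH3-only sum, it was 6.59, 6.09, 3.80 and 3.54, and SKOV3 TET1 then lay below its control and not above it. The order of control and TET1 in each line thus depended on which genes were summed. PMAIP1 was 78.0% of the BH3-only sum in SKOV3 control and 61.9% after TET1 overexpression, and BMF was 0.70% and 7.49%. In HeyC2 the shares of PMAIP1 were 43.6% and 51.5%.

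The other BCL2 family genes, 13 by a list written by hand, put these values in context. In HeyC2, 9 of them passed, with 0 called higher and 1 lower, which was BCL2A1, a pro-survival NF-kB target (-1.25). In SKOV3, 9 passed, with 2 called higher and 3 lower, beside 20.7% and 18.2% of all genes, and with so few genes nothing is read from these counts. BBC3, which encodes the BH3-only protein PUMA, was at 1.03 and 9.33 FPKM in SKOV3, a relative change of 2.16, and at 22.64 and 17.83 FPKM in HeyC2, a relative change of -0.39. HRK, also BH3-only, was the other gene called higher in SKOV3 (0.76). At 0.74 and 2.37 FPKM, HRK passed only through its level in TET1. BAD, BCL2L12 and the hypoxia-responsive BNIP3 were called lower there, at -0.74, -0.85 and -1.33. For BBC3, as for BMF, the SKOV3 control was thus the lowest of the 4 libraries. BOK, an effector-like member, was the highest of these genes in HeyC2 (0.47).

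**Figure D4:**
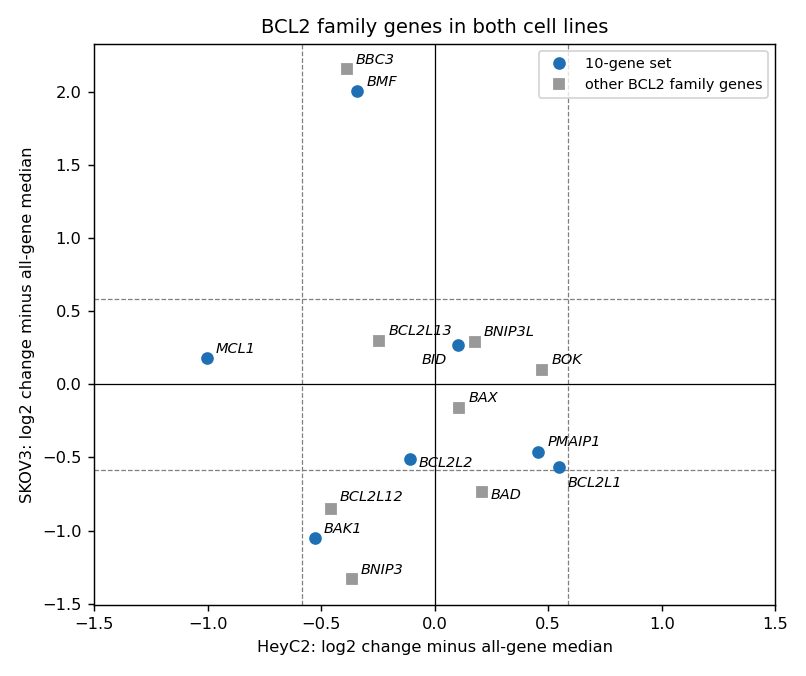
Relative log2 change in HeyC2 (horizontal) and SKOV3 (vertical) for the BCL2 family genes with a mean of at least 1 FPKM in both lines. Circles are the members described here, squares are other genes of the family, and dashed lines mark 1.5-fold. BBC3 and BMF lie at 2.16 and 2.01 in SKOV3 and below 0 in HeyC2 on this centred scale, and MCL1 lies at -1.004 in HeyC2 (0.74 as deposited without centring).

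Genes that act around the family were taken from lists written by hand, 67 with the other family genes included. Of these, 58 passed in HeyC2, with 7 called higher and 9 lower, and 60 passed in SKOV3, with 10 called higher and 13 lower. The shares called higher and lower were 12.1% and 15.5% in HeyC2, beside 12.5% and 9.19% of all genes, and 16.7% and 21.7% in SKOV3, beside 20.7% and 18.2% of all genes. BIRC5, the mitotic inhibitor of apoptosis survivin, was called lower in both lines, at -1.38 and -1.15. TNFRSF10B, a receptor of the death ligand TRAIL, was called higher in both, at 0.66 and 0.73. TNFRSF10A, another TRAIL receptor, was called in opposite directions, at 0.84 in HeyC2 and -1.28 in SKOV3, and TNFRSF10D, a TRAIL receptor that passes on no death signal, was at 0.63 and 0.51. TNFSF10, which encodes TRAIL itself, was at 1.03 and 20.76 FPKM in SKOV3 (3.23).

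Of the 12 apoptosome and executioner genes, all passed in both lines, with 0 higher and 2 lower in HeyC2 and 1 higher and 1 lower in SKOV3. AIFM1 was the lowest in HeyC2 (-0.75), and the highest were ENDOG in HeyC2 (0.28) and HTRA2 in SKOV3 (0.69). Of the 6 inhibitors of apoptosis, all passed in HeyC2, with 2 higher and 1 lower, and 5 in SKOV3, with 0 higher and 1 lower. NAIP was the highest of them in HeyC2 (0.82) and in SKOV3 (0.12). Among 8 genes for turnover and binding partners, 0 were higher and 1 lower in HeyC2, and 1 was higher and 1 lower in SKOV3. Of these, HUWE1, whose product marks MCL1 protein for degradation, was lowest in HeyC2 (-0.81) and FBXW7 highest (0.10). Of 15 death receptor pathway genes, 11 passed in HeyC2, with 4 higher and 1 lower, which was RIPK1 (-0.67). In SKOV3, 14 passed, with 2 higher and 2 lower. Over all genes tested, 12.5% were called higher and 9.19% lower in HeyC2, and 20.7% and 18.2% in SKOV3. With so few genes per list, nothing is read from the counts in this paragraph.

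Among 13 transcription factors known to act on members, 12 passed in each line, with 1 higher and 3 lower in HeyC2, beside 12.5% and 9.19% of all genes, and 4 higher and 5 lower in SKOV3, beside 20.7% and 18.2%. DDIT3, which encodes the stress factor CHOP, a known activator of BCL2L11, was at -1.62 in HeyC2 and 1.17 in SKOV3. ATF4, which acts above DDIT3, was at 0.02 and 0.80. FOXO4 was at -0.72 and 1.36, while FOXO3, the FOXO factor best known for BCL2L11, was at -0.50 and -0.59. E2F1 was at 0.66 and -0.999, and NFKB1 was the lowest of the list in SKOV3 (-1.59). These factors are given beside the members as levels, and a relation between them was not tested.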

How the data were processed

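RNA-seq of HeyC2 and SKOV3 cells, TET1 or control, was used with 1 library per condition. The authors deposited FPKM, made from paired-end TruSeq libraries aligned to hg19 (GRCh37) with Bowtie2 2.2.6 and quantified with RSEM 1.2.17. The annotation, filters and strand setting are not given in the sources used here. The members and gene lists were chosen with earlier results of these data known.

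The constant by which each TET1 column had been scaled to GAPDH was recovered from the spacing of its values, which was 0.01 FPKM before scaling, and 100% of 1220 distinct values below 40 FPKM in HeyC2 and 2637 in SKOV3 lay on that grid. It was divided out before a pseudocount of 1 was added, since a pseudocount on the scaled column weighs the TET1 values of low genes differently from the control values. Genes with a mean of at least 1 FPKM over control and TET1 entered the median. Fragment numbers were estimated from the spacing of low values in genes with 1 annotated transcript and from the length of the canonical transcript. They are approximate: the mean cosine of the distance of 246 to 293 such values from whole fragments, which is 1 when all are whole and 0 with no pattern, was 0.383 to 0.523 at the depth chosen as its maximum. The alternatives tried were other pseudocounts, filters, scalings and fold limits, TPM, and a correction for GC content and length in 20 bins each. The ratio of summed FPKM without MCL1, without PMAIP1 and with BBC3 was added after seeing the data. Intervals are exact binomial (Clopper-Pearson) and cover counting error only.

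The genes named were all members, TET1 and GAPDH, the genes of each hand-written list called in the same direction in both lines, the highest and lowest gene of each list in each line, and genes that overlap a member. Others named (BAX, HRK, BAD, BCL2L12, TNFRSF10A, TNFRSF10D, DYNLL1, ATF4, FOXO3, E2F1, KRT19 and other markers) were chosen after their values were seen. Some genes of the lists are not reported here by name. Loci came from GENCODE on GRCh37 and sequences before gene starts from RefSeq. The steps were tested on made-up tables. Python 3.11.15, numpy 2.4.6, pandas 2.3.3, scipy 1.17.1 and matplotlib 3.10.9 were used.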

Additional observations from a re-analysis of the deposited data

Results flagged for a closer look

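Of the 7 members that passed in both lines, 4 lay on opposite sides of the all-gene median in HeyC2 and SKOV3. The share of all genes that did so is not given here, so this count is not a result about the family. The difference of the relative log2 change, SKOV3 minus HeyC2, was 2.35 for BMF, 1.18 for MCL1, -1.11 for BCL2L1 and -0.92 for PMAIP1. With 1 library per condition these differences were not tested.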

How the results depend on the processing

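No paired analysis was possible because there is 1 library per condition, and for the same reason no replicate was left out. Unless the way a setting is built shows it, what moved a value was not tested. The change of BMF and of BCL2L11 in SKOV3 was at least 1.5-fold higher in 9 of 9 settings of scaling, pseudocount, filter and correction for GC content and length, whether or not the gene passed the filter. MCL1 in HeyC2 and BAK1 in SKOV3 stayed at least 1.5-fold lower in 8 of 9. The exception for both was the deposited scale without centring, where MCL1 in HeyC2 was at 0.74 and BAK1 in SKOV3 at -0.45.

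On that scale 9 members in HeyC2 and 4 in SKOV3 were at least 1.5-fold higher and 0 lower in either. The median log2 change was 1.23 in HeyC2 and 0.30 in SKOV3. That scale keeps the GAPDH constants of 3.23 in HeyC2 and 1.35 in SKOV3, which multiply every TET1 value. No all-gene share is given for these or the following counts, so they are not read as results about the members. With the scaling kept and the median subtracted, 1 member, BCL2L1, was higher in HeyC2 and the median was -0.38. A limit of 1.2-fold gave 2 higher and 3 lower members in HeyC2 and 4 lower in SKOV3. Pseudocounts of 0.1 and 0.01 each gave 2 lower in SKOV3, BAK1 and BCL2L1. A mean of at least 5 FPKM left 0 higher in SKOV3, since BMF and BCL2L11 do not reach it. Leaving out the most abundant member of each role moved the pro-survival to BH3-only ratio to 5.28 in HeyC2 TET1 and 7.63 in the SKOV3 control. The pro-survival member left out was BCL2L1 in HeyC2 TET1 and MCL1 in the SKOV3 control. In settings chosen after seeing the data, leaving out MCL1 gave 5.13 in HeyC2 control, 1.68 in SKOV3 control and 1.25 in SKOV3 TET1. Leaving out PMAIP1 gave 18.2 and 17.1 in HeyC2 control and TET1 and 17.5 and 10.3 in SKOV3. Adding BBC3 gave 6.59 in HeyC2 control. Depth limits BIK, BCL2 and BCL2L11 in HeyC2.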
